A study of Rattus norvegicus with 2 samples.

Results

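Oxidative phosphorylation couples the transfer of electrons along the mitochondrial respiratory chain to the making of ATP. Complex I takes electrons from NADH and complex II from succinate. Coenzyme Q carries them to complex III, cytochrome c carries them on to complex IV, and complex IV passes them to oxygen. The proton gradient built on the way drives ATP synthase, also called complex V. Most subunits are encoded in the nucleus and a small set in mitochondrial DNA. Muscle is rich in these complexes, and some complex IV subunits have a separate isoform in heart and skeletal muscle.

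The genes described here were all those in the annotated table whose single symbol started with Nduf, Uqcr, Cox4 to Cox8 or Atp5, or was Sdha to Sdhd or Cycs. This rule found 88 genes, measured through 108 of the 29214 probe sets, out of 18489 singly named genes. The rule used names only and no measured value. It took in 79 genes for subunits or cytochrome c, 5 for assembly factors and 4 that encode no subunit of the major complexes. Among the last, Cox4nb (now Emc8) belongs to a protein complex of the endoplasmic reticulum, and Cox6c-ps1 is a pseudogene. Ndufb4l1 is a copy related to Ndufb4, and Atp5s (now Dmac2l) encodes a coupling factor of ATP synthase. The subunit genes Cyc1, of complex III, and those encoded in mitochondrial DNA lie outside the rule.

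The samples were cultured skeletal muscle stem cells, abbreviated MDSC, from male obese Zucker fa/fa rats, whose fa mutation lies in the leptin receptor gene. One sample was labelled early diabetes and the other late diabetes, and both carried the same genotype. The growth notes give the same text for both, a culture medium with 20% serum and a glucose level of either 5.6 mM or 22 mM. They do not say which level each sample had. An effect of glucose level can therefore not be told apart from that of disease stage. The labels give no ages and no number of rats or wells, and no lean rats were included here. Each RNA was hybridised to a single Affymetrix Rat Gene 1.0 ST array, on which a probe set sums up the short probes of a transcript.

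Since each group held 1 array, neither a spread among cultures nor a test could be had, and each value below describes these 2 arrays. Values are log2 of the deposited normalized intensity, and a difference is late minus early on that scale. A gene counted as compared when its mean over both arrays was at least log2 8.03, the median across all genes, which left 9304 genes. Background was set at log2 6.81, the 95th percentile of 1199 olfactory receptor genes. In bulk RNA, fewer cells of a type and less RNA per cell cannot be told apart. Of 10 satellite cell and myoblast markers 3 reached the floor, and the defining genes Pax7 (7.35 early and 7.38 late) and Myod1 (6.85 and 6.65) did not. All 6 fibroblast and mesenchymal markers were measured and 4 reached the floor, as did 5 of 7 smooth muscle and pericyte markers. For white blood cells the number was 1 of 6, and 0 of 3 measured endothelial, 0 of 4 Schwann cell and 0 of 4 adipocyte markers reached it.

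The genes of the respiratory chain and ATP synthase differed little between the arrays. Of the 88 genes 84 lay above background in both arrays, and 81 reached the floor for comparison. Only Ndufa3 and Ndufs5, 2 of the 81, were higher in late diabetes by 1.5-fold or more, a share of 2.47% where 11.0% of all compared genes were that much higher. At least 1.5-fold lower were 0 of the 81, where 6.1% of all compared genes were. Past a smaller difference of 0.32 on the log2 scale, 8 of the 81 were higher (9.88%, against 23.3% of compared genes) and 4 were lower (4.94%, against 13.3%). Only Cox4i2, which stayed under the floor, differed by 2-fold or more as measured, 1 of the 88, while 5.44% of all 18489 genes did. The median difference of the 81 was 0.07, and that of all 9304 compared genes was 0.06. The middle 50% of the 81 lay between -0.08 and 0.16, and that of all compared genes between -0.16 and 0.30. The SD of the differences across genes was 0.22 for the 81 and 0.61 for the 9304. Many of the 81 lay far above the floor, such as Atp5d at 13.35 and 13.49. The 9304 were not matched to them for brightness, and the part of brightness in the narrower spread was not tested.

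**Figure D1:**
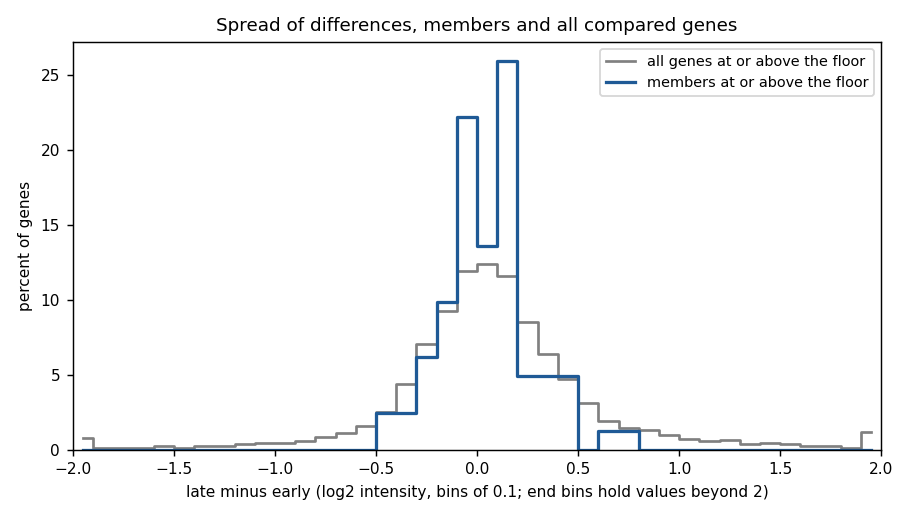
Percent of genes (vertical axis) by late minus early difference in log2 intensity (horizontal axis, bins of 0.1) for the 81 compared respiratory chain and ATP synthase genes in blue and all 9304 compared genes in grey. The blue line stays between -0.48 and 0.76, while the grey line runs out to both ends.

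The only repeated measurement was that of genes covered by several probe sets. Over 406 genes with 2 probe sets above the floor, the SD of the difference within a gene was 0.20, which covers probe error and not the variation of cultures or rats. Of the 81 genes 58 (71.6%) had a difference smaller than this SD, against 45.6% of all compared genes, again without matching for brightness. The signs of such small differences also turned with the scaling of the arrays. As deposited, 46 of the 81 (56.8%) had the higher value in the late array and 35 the lower, and 57.3% of all compared genes had the higher value there. With each array centred on its median the numbers were 40 and 41, and with a brightness trend removed 39 and 42. In all 4 scalings tried 38 kept the higher and 34 the lower value, and 9 changed sign.

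Promoters are shown for the 2 genes past 1.5-fold, for Sdha, the highest of complex II, and for Ndufa13, the lowest of complex I. Each is the 250 bases before the start site in RefSeq's GRCr8 rat assembly, read 5′ to 3′ on the gene's strand. Ndufa3 lies at chr1:74515559-74515808 (minus strand), Ndufs5 at chr5:141264403-141264652 (minus), Sdha at chr1:30764303-30764552 (plus) and Ndufa13 at chr16:19560276-19560525 (plus). Capitals mark matches on either strand to the letters CCGGAAG, bound by ETS factors such as GABPA, or to TGCGCA, part of the site of the factor NRF1; the letters cannot overlap each other. Both factors are known regulators of respiratory chain genes.
Ndufa3: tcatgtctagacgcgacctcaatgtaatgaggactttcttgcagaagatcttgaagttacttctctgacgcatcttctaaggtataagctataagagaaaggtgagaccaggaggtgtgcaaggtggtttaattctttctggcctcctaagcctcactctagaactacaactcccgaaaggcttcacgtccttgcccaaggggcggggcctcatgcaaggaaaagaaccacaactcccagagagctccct
Ndufs5: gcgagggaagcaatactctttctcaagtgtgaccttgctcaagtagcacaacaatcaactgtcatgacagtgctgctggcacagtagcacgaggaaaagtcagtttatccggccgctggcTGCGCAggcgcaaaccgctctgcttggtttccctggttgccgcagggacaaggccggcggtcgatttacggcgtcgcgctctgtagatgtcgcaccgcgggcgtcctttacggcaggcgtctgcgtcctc
Sdha: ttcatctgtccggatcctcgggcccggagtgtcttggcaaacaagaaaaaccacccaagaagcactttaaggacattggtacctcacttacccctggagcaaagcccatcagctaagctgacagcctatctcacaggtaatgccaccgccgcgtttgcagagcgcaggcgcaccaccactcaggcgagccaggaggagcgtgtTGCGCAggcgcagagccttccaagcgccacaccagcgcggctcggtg
Ndufa13: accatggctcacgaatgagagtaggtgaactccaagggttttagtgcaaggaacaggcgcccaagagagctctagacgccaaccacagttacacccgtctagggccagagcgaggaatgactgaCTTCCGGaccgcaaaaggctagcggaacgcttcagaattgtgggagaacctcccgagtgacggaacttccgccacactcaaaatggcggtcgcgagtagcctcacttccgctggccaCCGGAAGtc

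A promoter was matched for 77 of the 88 genes, with the first start site listed for each gene. The letters CCGGAAG stood in 21 of the 77 windows (27.3%), against 7.74% of 27457 promoters of all genes. TGCGCA stood in 19 (24.7%, against 6.57%), and at least 1 of the pair in 36 (46.8%, against 13.4%). Protein-coding genes alone held the first in 9.52%, the second in 7.98% and at least 1 of the pair in 16.3%. The windows were not matched for base composition. Genes with the higher and with the lower value in the late array both carried them, 23 of 45 (51.1%) and 13 of 32 (40.6%). In the windows printed above, Sdha and Ndufs5 each held 1 match of the NRF1 letters. The lower gene Ndufa13 held 2 of the ETS letters, and Ndufa3, with the larger difference of the genes past 1.5-fold, held neither. A match is a description of the letters and not a measured site.

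Complex I, the NADH dehydrogenase, was represented by 36 subunit genes, all of which reached the floor. In the late array 20 had the higher value and 16 the lower, with a median difference of 0.05. Ndufa10 and Ndufb5 counted as higher through their dimmer probe sets, since their brighter ones were lower late (-0.07 and -0.11). With only the brightest probe set of each gene the median was 0.03. The 7 core genes, which encode the subunits that carry out electron transfer, had a median of -0.03. The 29 accessory genes lay between -0.39 and 0.76 with a median of 0.05. Both genes past 1.5-fold, all 4 higher by more than 0.32 and the 1 lower by more than 0.32 were accessory.

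Ndufa3, an accessory subunit of the membrane arm, stood at log2 9.57 early and 10.33 late. That made it 1.69-fold higher late, a difference of 0.76. It was measured by 1 probe set and stayed past 1.5-fold in all 4 scalings, at 0.68 or more. Ndufs5, another accessory subunit of the membrane arm, was at 10.61 and 11.24, or 1.55-fold higher. Its 3 probe sets gave differences of 0.61 to 0.64, although RefSeq also lists the pseudogenes Ndufs5-ps1 and Ndufs5-ps2, whose sequences can share probes with it. With quantile normalization, median centring or the trend removed, the difference of Ndufs5 was 0.56, 0.56 and 0.55, just under 1.5-fold.

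Ndufb4, a subunit of the same arm, came next at 10.62 and 11.09, with 2 probe sets at 0.45 and 0.50. The mitochondrial acyl carrier protein gene Ndufab1, whose product also serves fatty acid and lipoic acid synthesis, was at 11.20 and 11.61. The lowest of complex I was Ndufa13, also known as GRIM-19 for a part in cell death. It was at 9.91 and 9.52, 1.31-fold lower late, and its 3 probe sets gave -0.40 to -0.38. Ndufb4, Ndufab1 and Ndufa13 all differed by more than the probe SD of 0.20. Ndufab1 had only 1 probe set. Those of Ndufb4 and of Ndufa13 kept to 1 side of 0, but probe sets of near-identical copies may not be separate measurements.

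Among the core genes of complex I, Ndufs8, which encodes an iron-sulphur subunit, was at 10.52 and 10.27, a difference of -0.25. Ndufs3, a core subunit beside it in the arm that reduces coenzyme Q, was at 10.73 and 10.52, a difference of -0.21. Ndufs7, which holds the last iron-sulphur cluster of the same arm, had the higher value late, at 12.23 and 12.40. The NADH-binding subunit gene Ndufv1 was at 11.64 and 11.54, Ndufv2 at 12.22 and 12.19 and Ndufs1 at 10.40 and 10.53. So the core genes of this 1 complex did not share a direction, and 5 of the 7 differences were smaller than the probe SD.

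**Figure D2:**
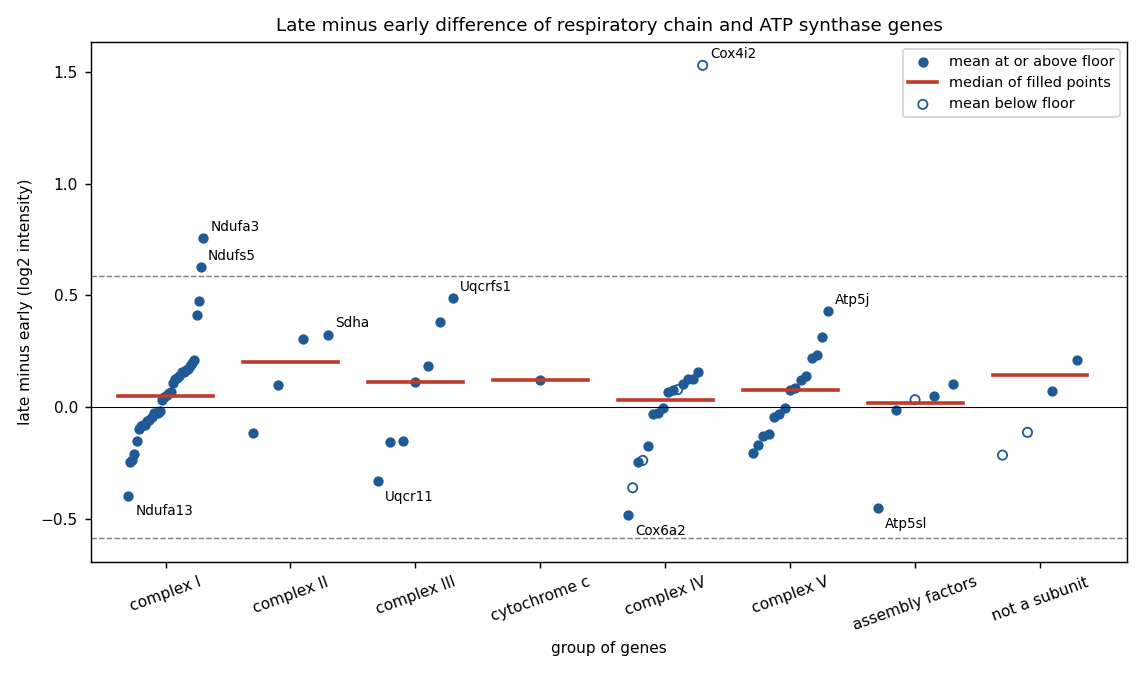
Late minus early difference in log2 intensity (vertical axis) of each of the 88 genes, by complex. Filled points are genes whose mean reached the floor, open points those below it, red bars the median of the filled points, and dashed lines mark 1.5-fold. Ndufa3, Ndufs5 and the open point Cox4i2 lie above the upper line, and no point lies below the lower one.

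Complex II, succinate dehydrogenase, also works in the citric acid cycle and is encoded by 4 nuclear genes. Its median difference was 0.20, with 3 genes higher and 1 lower in the late array. Sdha, the flavin-bearing catalytic subunit, was at log2 10.27 and 10.59, higher late by 0.32. Sdhb, the iron-sulphur subunit, was at 10.19 and 10.50, higher by 0.31. The membrane anchor genes were closer to 0: Sdhd was at 10.11 and 10.22, and Sdhc, the lower one, at 12.64 and 12.53. Each gene had 1 probe set, and each kept its sign in all 4 scalings, in which Sdhd was as low as 0.03.

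Complex III, which hands electrons from coenzyme Q to cytochrome c, had 7 measured genes and a median difference of 0.11. Uqcrfs1, the Rieske iron-sulphur protein, was at log2 9.84 and 10.33, 1.40-fold higher late. Uqcrh, the hinge protein that helps bind cytochrome c, was at 11.67 and 12.05, or 1.30-fold higher. The large structural genes Uqcrc1 (11.34 and 11.52) and Uqcrc2 (11.58 and 11.69) differed by less than the probe SD. The remaining genes had the lower value late: Uqcr11 at 12.14 and 11.81, Uqcrq at 11.86 and 11.70, and Uqcrb at 12.91 and 12.75. The 3 probe sets of Uqcrb spanned only -0.16 to -0.15, and RefSeq lists near copies of that gene, such as Uqcrb-ps1. Complex III thus held members more than 0.32 apart in both directions, 2 higher and 1 lower. Cyc1, its cytochrome c1 subunit, was taken from a separate list and was at 11.30 and 11.61, higher by 0.32.

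Cycs, the mobile carrier cytochrome c that also triggers cell death when it leaves mitochondria, was at log2 12.30 and 12.42. Its 3 probe sets gave differences of 0.10 to 0.15, all smaller than the probe SD. Coq7, a hydroxylase of coenzyme Q synthesis and no member of the named set, was 1.68-fold higher late (8.03 and 8.77). Of the 12 compared genes of the coenzyme Q and cytochrome c list it alone was past 1.5-fold. That is 8.33% higher and 0 lower, against 11.0% and 6.1% of all compared genes, and the median of the list was 0.13.

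Complex IV, cytochrome c oxidase, had 16 measured genes, of which 12 reached the floor, 6 higher and 6 lower late with a median of 0.03. Cox7b counted as lower through a probe set below background, since its brighter one was higher late (0.08). With only the brightest probe set of each gene the median of complex IV was 0.08. The 11 genes expressed in most tissues lay between -0.25 and 0.16, and 10 of them within the probe SD. That count includes Ndufa4, named for complex I but now known as a subunit of complex IV, at 12.72 and 12.70. It also includes Cox7a2l, which joins complexes III and IV, at 11.81 and 11.78. Cox5a was at 12.24 and 12.40, Cox6c at 13.26 and 13.37 and Cox7c at 12.42 and 12.55, small differences upward. The exception was Cox4i1, the usual form of subunit 4, at 11.87 and 11.63, 1.19-fold lower late.

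Of the 5 isoforms of restricted tissues, Cox6a2 alone reached the floor. Cox4i2, the form of subunit 4 known from lung and from the response to low oxygen, went from log2 6.19 early to 7.72 late. Because 6.19 is below background, the gene was at least 1.88-fold higher late, and its measured difference was 1.53. This gene was the highest of all 88 but its mean stayed under the floor, so it is not among the 81. Its difference stood 1.77 above that of Cox4i1, and the pair had opposite signs as deposited, with quantile normalization and with median centring. Cox4i2 is also known from pericytes, and the 7 smooth muscle and pericyte markers together went from an intensity of 34969 early to 25682 late. Cspg4 was at 11.15 and 8.77, Pdgfrb at 12.81 and 12.20 and Rgs5, near background, at 6.86 and 6.57. Of the 7, Des alone had the higher value late, at 7.61 and 8.28. The part of these cells in the Cox4i2 difference was not tested.

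Cox6a2, the heart and skeletal muscle form of subunit 6a, was at 8.62 and 8.14, 1.40-fold lower late and the lowest of the 88 genes. Its widespread counterpart Cox6a1 was at 12.23 and 12.06, lower by 0.17. Of 8 muscle fibre markers 4 reached the floor, and the summed intensity of the 8 went from 9235 early to 4420 late. Myh1 stood at 12.34 and 10.75 and Myh2 at 10.45 and 6.20, while Ckm was at 9.09 and 8.88 and Acta1 at 10.57 and 10.68. Their part in the Cox6a2 difference was not tested. Cox8b, another muscle form in rodents, was below background in both arrays (6.10 and 5.86), as was the testis form Cox8c (6.50 and 6.14). No fold is given for either. Their widespread counterpart Cox8a was at 13.05 and 13.17. Cox6b2, a testis form, was above background but under the floor at 7.14 and 7.22. Cox6b1, Cox7a1 and Ndufa4l2 were not analysed here, since no probe set carried any of them as its single symbol.

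**Figure D3:**
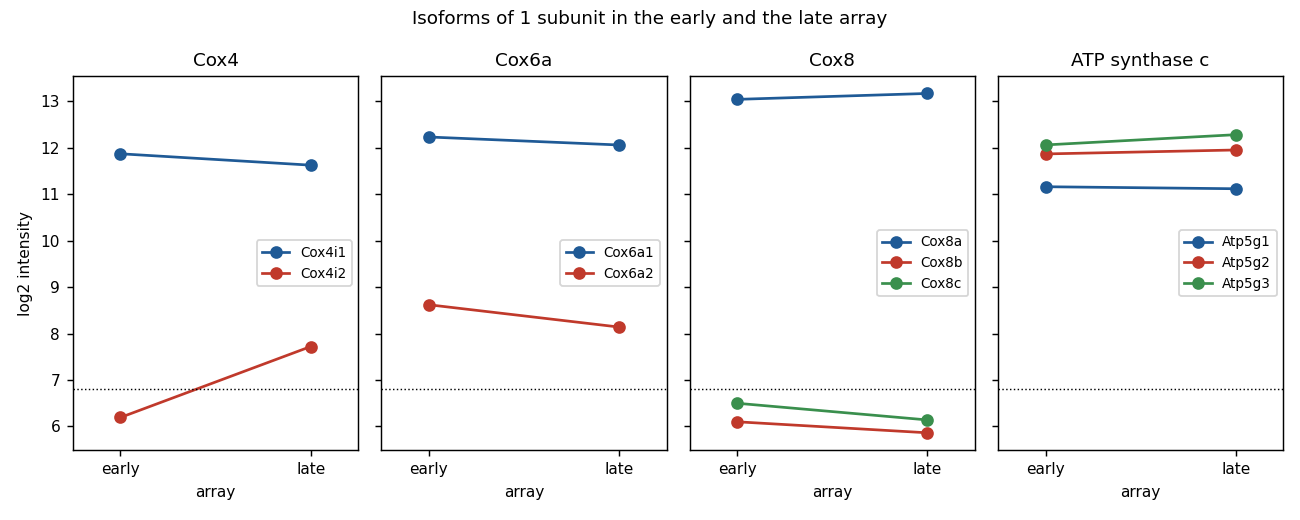
Log2 intensity (vertical axis) in the early and the late array for isoforms of complex IV subunits and of ATP synthase subunit c, 1 line per gene, with the background level dotted. Cox4i2 runs from below the dotted line to above it, Cox6a2 slopes down, Cox8b and Cox8c stay below the line, and the remaining lines are nearly flat.

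ATP synthase was represented by 15 genes, all above the floor, 8 higher and 7 lower late with a median of 0.08. The 5 genes of the rotary F1 part lay between -0.21 and 0.14. The catalytic beta subunit gene Atp5b was at log2 12.76 and 12.88 and its alpha partner Atp5a1 at 11.50 and 11.58. Atp5c1, the turning gamma subunit, was at 9.85 and 9.81, Atp5d (delta) at 13.35 and 13.49, and Atp5e (epsilon), the lowest of complex V, at 12.30 and 12.09.

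The 10 genes of the membrane part and the side stalk spread more, from -0.17 to 0.43. Atp5j, coupling factor 6 of the side stalk, was at 9.76 and 10.19, 1.35-fold higher late and the only gene of complex V past 0.32. Atp5o, which caps that stalk, was at 9.92 and 10.23, or 1.24-fold higher. Further genes of the stalk had the lower value late: Atp5f1, for subunit b, was at 11.33 and 11.20, and Atp5h, for subunit d, at 11.39 and 11.23. The 3 probe sets of Atp5h gave -0.18 to -0.15, so the genes of this stalk went both ways.

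A trio of genes encodes the same mature subunit c, which forms the proton-driven ring. Atp5g1 was at 11.16 and 11.12, Atp5g2 at 11.87 and 11.95 and Atp5g3 at 12.06 and 12.28. The Atp5g3 difference exceeded that of Atp5g1 by 0.26 and that of Atp5g2 by 0.14, without replicates to judge it. Atp5l (10.24 and 10.47), Atp5i (8.11 and 7.99) and Atp5j2 (12.52 and 12.52), all small membrane subunits, had differences of 0.23, -0.12 and 0.00.

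Among the assembly factors in the named set, Ndufaf1 to Ndufaf4 lay between -0.01 and 0.10. Atp5sl, now called Dmac2 and known as an assembly factor of complex I, was at log2 9.81 and 9.35, 1.37-fold lower late. Of 41 further assembly factors listed, 21 were measured and 19 compared, with 0 past 1.5-fold in either direction and a median of 0.13. Of all compared genes 11.0% were that much higher and 6.1% that much lower, and 19 genes are few to set beside such shares. Ttc19, for complex III, was the highest at 9.54 and 9.99, and Surf1, for complex IV, the lowest at 8.83 and 8.47.

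Of the 88 genes 14 were measured by several probe sets, and in 9 of these all probe sets had the same sign. In the other 5 (Cox7a2, Cox7b, Ndufa10, Ndufb5 and Ndufs6) they disagreed. The dimmer probe set of Cox7b lay below background at log2 5.69 and 5.60, while the brighter one was at 11.42 and 11.50, a difference of 0.08. Likewise 1 of 3 probe sets of Cox7a2 lay at 7.23 and 7.11, under the floor, while the other 2 were higher late by 0.15 and 0.17. Within the 12 genes with several probe sets above the floor the SD was 0.06. That is smaller than the 0.20 of the 406 genes with exactly 2 probe sets above the floor, but the 12 include genes with 3. Also, probe sets of near-identical copies may not be separate measurements.

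**Figure D4:**
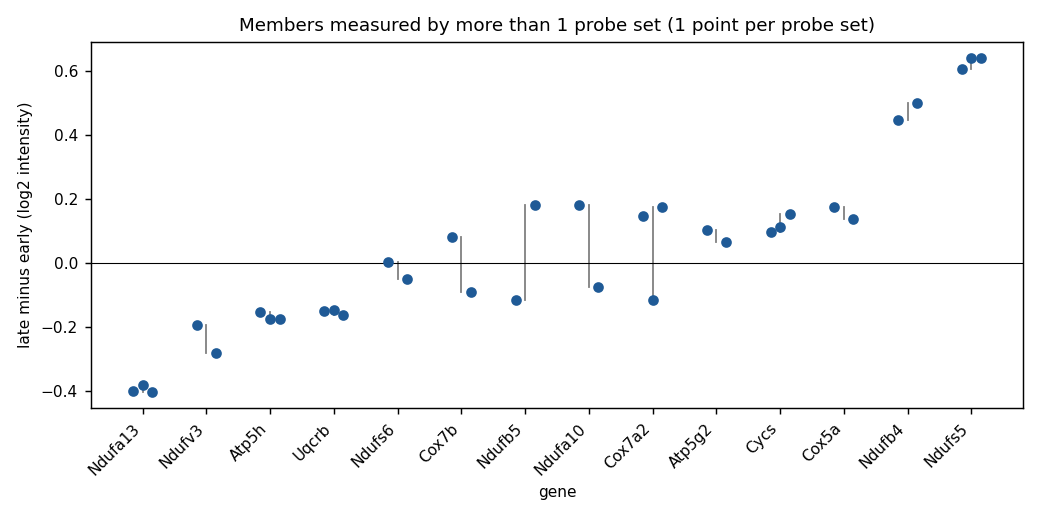
Late minus early difference in log2 intensity (vertical axis) of each probe set of the 14 genes with more than 1, genes ordered by their mean. The probe sets of Ndufs5, Ndufb4 and Ndufa13 lie close together and away from 0, and those of Cox7b, Ndufb5, Ndufa10 and Cox7a2 lie on both sides of it.

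Genes that feed or regulate the chain were read from lists that lie outside the named set. In the pyruvate dehydrogenase and citric acid cycle list 3 of 25 compared genes were at least 1.5-fold higher late and 0 lower, with a median of 0.15. The 3 make 12.0%, near the 11.0% of all compared genes. Pdp1, a phosphatase that switches pyruvate dehydrogenase on, was at log2 8.85 and 9.84, 1.98-fold higher. Me2, the mitochondrial malic enzyme, was at 9.86 and 10.68, and Pdk3, a kinase that switches pyruvate dehydrogenase off, at 10.08 and 10.85. Pdk3 is named outside the naming rule to complete the 3, after its values were seen.

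In the fatty acid oxidation list 1 of 19 compared genes was higher by 1.5-fold and 1 lower, with a median of 0.19. That is 5.26% each way, below the 11.0% higher and near the 6.1% lower of all compared genes. The former was Cpt1a, which controls the entry of fatty acids into mitochondria, at 8.69 and 10.51, 3.53-fold higher late. The latter was Acaa2, the last enzyme of the oxidation cycle, at 11.36 and 10.32, 2.06-fold lower.

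Of 16 compared carrier and uncoupling genes 2 were higher and 1 lower at that threshold, and their median was -0.02. These shares of 12.5% and 6.25% are near the 11.0% and 6.1% of all compared genes. Slc25a10, the dicarboxylate carrier, was at 9.44 and 10.74, 2.47-fold higher, and Slc25a24, a carrier of ATP-magnesium and phosphate, was 1.87-fold higher. The uncoupling protein gene Ucp2 was at 8.84 and 7.48, 2.57-fold lower. In the list for cristae, fusion and fission 1 of 17 was past 1.5-fold, Apool, a cristae protein gene, at 10.07 and 9.47. That is 5.88% lower, near the 6.1% of all compared genes.

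Regulators of mitochondrial biogenesis had 1 of 15 compared genes past 1.5-fold upward and 0 downward, with a median of 0.24. That is 6.67% upward against 11.0% of all compared genes. Of the 15, 11 (73.3%) had the higher value late, against 57.3%, and 15 genes are few to set beside such shares. This share was not particular to the regulators. It was 73.7% in both the further assembly factor and the fatty acid oxidation lists. The coenzyme Q list had 66.7%, the cristae list 64.7% and the citric acid cycle list 64.0%, while the carriers had 8 higher and 8 lower. The regulator past 1.5-fold was Gabpa, the ETS factor named above, at log2 9.00 and 9.73, 1.66-fold higher late. Nrf1 was at 9.32 and 9.63. The mitochondrial transcription factor gene Tfam was at 8.17 and 8.62, and the nuclear receptor gene Esrra at 8.57 and 9.11. The coactivator gene Ppargc1a lay below background in both arrays (6.03 and 6.68), and no fold is given. Others of the list were lower or near 0, such as the nuclear receptor gene Ppard (a difference of -0.35), the mitochondrial RNA polymerase gene Polrmt (-0.08) and Gabpb1, which encodes a partner of GABPA (0.05). These 3 were chosen after their values were seen. No link between the regulators and the respiratory chain genes was tested.

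**Figure D5:**
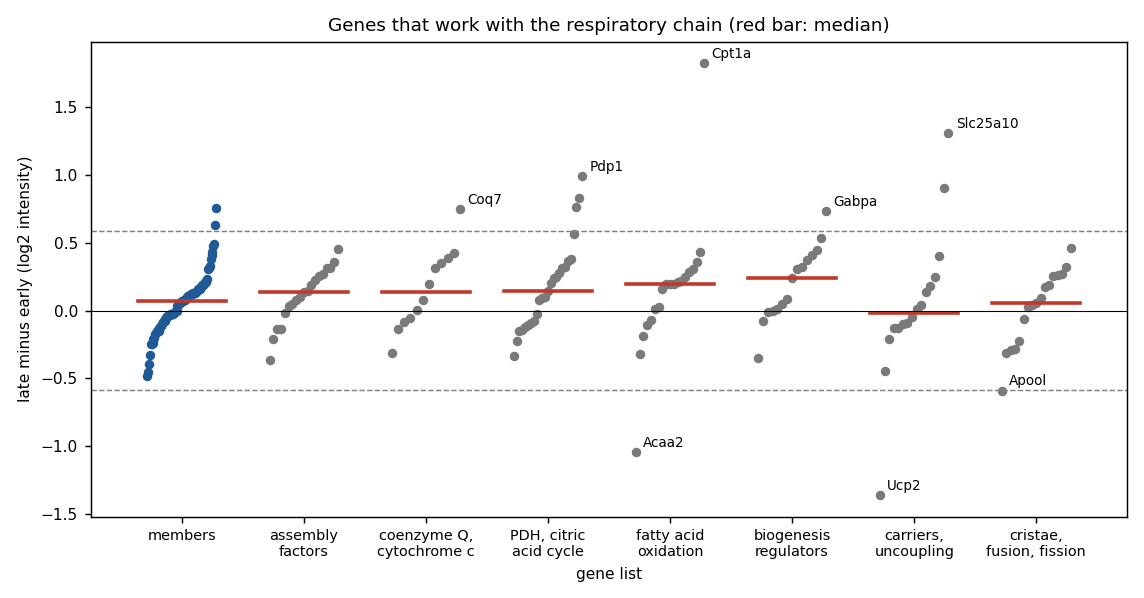
Late minus early difference in log2 intensity (vertical axis) for the 81 compared respiratory chain and ATP synthase genes (blue) and for the compared genes of 7 lists that work with them (grey), with red bars for medians and dashed lines at 1.5-fold. The grey points Cpt1a, Slc25a10, Ucp2 and Acaa2 lie farther from 0 than any blue point.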

How the data were processed

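The authors deposited normalized intensity values on a linear scale for 29214 probe sets and 2 arrays, in 2 tables that held identical values, per the file headers and a comparison of all rows. How they were normalized is not given in the sources used here. Total RNA per cell cannot be seen after normalization. The design had assumed log2 values, and the linear values were turned into log2 without a pseudocount.

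Probe sets naming 1 gene (20164) were kept and averaged per gene. Those naming several (328), none (8696) or a symbol damaged by a spreadsheet (26) were left out. All 88 symbols matched RefSeq, 70 as current and 18 as older names. Genes named were the extremes and isoforms of the set and genes with several probe sets. From each list came the 2 highest and 2 lowest if 1.5-fold apart, plus Ppargc1a, Nrf1, Tfam and Esrra. Ttc19, Surf1 and Cyc1, each under 1.5-fold, are named outside this rule, as are Pdk3, Ppard, Polrmt and Gabpb1. Some genes that the rule allows are left unprinted, and 1 item is not reported here. Members, lists and background level were chosen with earlier results of these data known. The lists of mitochondrially encoded genes had no match and were not used here.

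Alternatives covered the filter, scaling (quantile, median centring, lowess of span 0.3), probe set summary, a pseudocount of 16, fold thresholds and means. Calculations were tested on simulated data. Python 3.11.15, numpy 2.4.6, pandas 2.3.3 and statsmodels 0.14.6 were used. Array number limits the precision.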

Additional observations from a re-analysis of the deposited data

How the results depend on the processing

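The median difference of the respiratory chain and ATP synthase genes lay between -0.00 and 0.08 under all alternatives tried. No median moved by more than the probe SD of 0.20, but that SD describes single genes and is a wide bound for the median of a list. With the 75th percentile filter the median of the regulators went from 0.24 to 0.04, and that of the coenzyme Q list from 0.13 to 0.33. Some counts of genes past the threshold moved by more than 1.5 times, and the cause was not tested except where given. Of the members, 1 was higher under quantile normalization, 1 under median centring and 1 with the lowess trend removed, against 2 as reported. Past 0.32 on the log2 scale 8 members were higher and 4 lower, and at 2-fold 0 were higher. With no filter the biogenesis regulators had 2 higher, Ppargc1a below background being added. With the 75th percentile filter the coenzyme Q, fatty acid oxidation and biogenesis lists had 0 higher, and the carrier and cristae lists 0 lower, since fewer genes were kept. With a pseudocount of 16 the cristae list had 0 lower. Past 0.32 on the log2 scale the further assembly factors had 2 higher and 1 lower, coenzyme Q 4 higher, the citric acid cycle list 7 higher and 1 lower, fatty acid oxidation 3 higher, regulators 5 higher and 1 lower, carriers 2 lower and the cristae list 1 higher. At 2-fold coenzyme Q, the citric acid cycle list and the regulators had 0 higher, carriers 1 higher and the cristae list 0 lower. No paired analysis was possible because each group holds 1 array. The background filter was added after the data were seen and gave 3 members higher, Cox4i2 among them. A difference near the 6.81 background is a bound only.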

Other observations

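Cox4i1 and Cox4nb are divergent neighbours. In RefSeq's GRCr8 assembly their start sites lie 148 bases apart on opposite strands of chromosome 19. Cox4i1 was at log2 11.87 early and 11.63 late, a difference of -0.25, while Cox4nb was at 10.56 and 10.64, a difference of 0.07. The first is somewhat larger than the probe SD of 0.20 and the second smaller, and neither has a replicate.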
